A study of Mus musculus with 4 samples.

Results

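Genes of the nuclear pore and of the transport receptors that pass through it were compared between bone marrow LSK cells sorted for high or for low c-Myc-eGFP, a fusion of the transcription factor to a fluorescent protein. The members were all genes measured by a probe set annotated to 1 gene only whose symbol is Nup, Ipo or Xpo followed by a digit, begins with Kpna or Kpnb, or is Cse1l, Tnpo1, Tnpo2, Tnpo3, Rangap1, Ranbp1, Ranbp2, Rcc1 or Tpr. This gave 46 of 18193 named genes, carried by 117 of 45037 probe sets. The rule used gene names and no measured value, but it was chosen with earlier results of these data known. Tpr and Nup35 were not analysed here.

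LSK cells are marrow cells negative for lineage markers and positive for c-Kit and Sca1, and they hold the stem cells and early progenitors of blood. The cells came from freshly dissected femurs of mice labelled WT, strain B6/129, and were sorted by c-Myc-eGFP into Hi and Lo, with 2 Affymetrix Mouse 430 2.0 arrays in each group. Both groups therefore carried the fusion protein; the mice's age, the sort limits and any pooling of animals were not given in the labels. Nothing says that replicates 1 and 2 came from separate animals, so p-values measure only the spread between these samples, which may be technical. The study is about control of blood stem cell differentiation by ubiquitin ligation, and the comparison asks which transcripts differ between LSK cells rich and poor in c-Myc.

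The nuclear pore complex is a large ring of nucleoporins set in the nuclear envelope. A scaffold of the Y complex and the inner ring holds a central channel of flexible nucleoporins, with filaments on the cytoplasmic side and a basket on the nuclear side. Importins bind cargo in the cytoplasm and release it in the nucleus when they meet Ran bound to GTP, while exportins bind cargo together with Ran-GTP and release it outside. Rcc1 loads Ran with GTP on chromatin, and Rangap1 with Ranbp1 and Ranbp2 drives GTP hydrolysis at the cytoplasmic side, which sets the direction of transport. Dividing animal cells make new pores in interphase, and take the pores apart and rebuild them at each mitosis.

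Levels are log2 intensities of the brightest probe set of each gene, and a difference is the mean of the Hi arrays minus the mean of the Lo arrays on that scale. The 4 arrays had medians of 5.70 to 5.82 over all probe sets, and the replicates correlated at r = 0.990 in Hi and 0.983 in Lo across probe sets, which are not independent. A limit for dim signal, from bacterial control probe sets, lay between 4.74 and 4.87. Of 7 LSK markers 6 were measured and none was dim; Ly6a, which encodes Sca1, was not analysed here. Kit stood between 11.39 and 11.95 with overlapping groups, and Flt3 and Cd34 differed by -0.15 and 0.11. Other markers of the list were lower in Hi without overlap: Procr by -2.00, Slamf1 by -1.68 and Ptprc by -0.58, each at an unadjusted p under 0.05. Procr, which has 1 probe set, passed an adjusted p of 0.05 (0.0313 by limma) in a fit over gene means. The part of this difference between the sorts in the results below was not tested. The 5 measured markers of mature lineages had summed linear intensities of 692 and 605 in Hi and 877 and 677 in Lo, against 18632 and 20221 in Hi and 24203 and 24691 in Lo for the LSK markers. None of these 5 was dim on all arrays. Hi minus Lo was -1.19 for Cd8a, -0.79 for Ms4a1 and -0.10 for Cd3e, and 0.35 for Cd4 and 0.26 for Itgam, with groups that overlapped for Cd3e and Itgam. As a sign of RNA quality, the Gapdh control probe set at the 3′ end exceeded that at the 5′ end by a log2 of 0.63 and 0.66 in Hi and 0.74 and 0.78 in Lo. For Actb the Hi arrays gave 0.60 and 0.55 and the Lo arrays 0.84 and 0.57, which overlapped, and the part of RNA quality in the results was not tested.

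Most members had a higher level in Hi, and none passed the test over all probe sets. Of the 46 genes, 36 had a positive and 10 a negative difference, with a median of 0.40 against 0.03 over all 18193 genes. By limma, 0 members passed an adjusted p of 0.05 in either direction, as did 0.0% of all 45037 probe sets; the smallest adjusted p of a member was 0.0839. At an unadjusted p under 0.05, 18 members (39.1%) were higher and 0 were lower, where 9.25% of all genes were higher and 11.0% were lower. The groups did not overlap for 34 members: Hi was the higher for 31 (67.4%), against 30.0% of all genes, and the lower for 3, against 25.4%. Among the 13275 genes above the dim limit on at least 1 array, 11.6% were higher and 14.7% were lower at that unadjusted limit, and Hi stood above Lo without overlap for 28.8% and below for 31.5%.

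Leaving out a Hi array gave fewer calls among all genes too, while leaving out a Lo array did not. The 18 members became 9 without Hi replicate 1 and 10 without Hi replicate 2, where 4.46% and 4.84% of all genes were higher at the same limit. They became 17 without Lo replicate 1 and 16 without Lo replicate 2, where 9.47% and 9.34% of all genes were. With arrays shifted to 1 median the count was 19, where 12.9% of all genes were higher and 8.89% were lower. Counted by probe set, 45 of the 117 reached that limit on the higher side and 2 on the lower, where 9.05% and 8.91% of all probe sets did. The groups stood apart with Hi above for 74 of the 117 and below for 5, against 29.3% and 22.0% of all probe sets. When each gene's probe sets were averaged and the fit was repeated over genes, limma called 6 members higher at an adjusted p of 0.05 and called 0 lower, against 1.39% and 1.52% of all genes. In that fit 34 members had Hi above Lo without overlap and 1 had it below, against 31.9% and 23.4% of all genes. The 6 called higher were Kpna2, Nup107, Rcc1, Nup43, Nup188 and Nup155. The first 3 have 1 probe set each, so their differences are the same as in the fit over all probe sets. A fit over the brightest probe set of each gene called the same 3 higher and 0 members lower, against 1.04% and 1.18% of all genes.

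**Figure D1:**
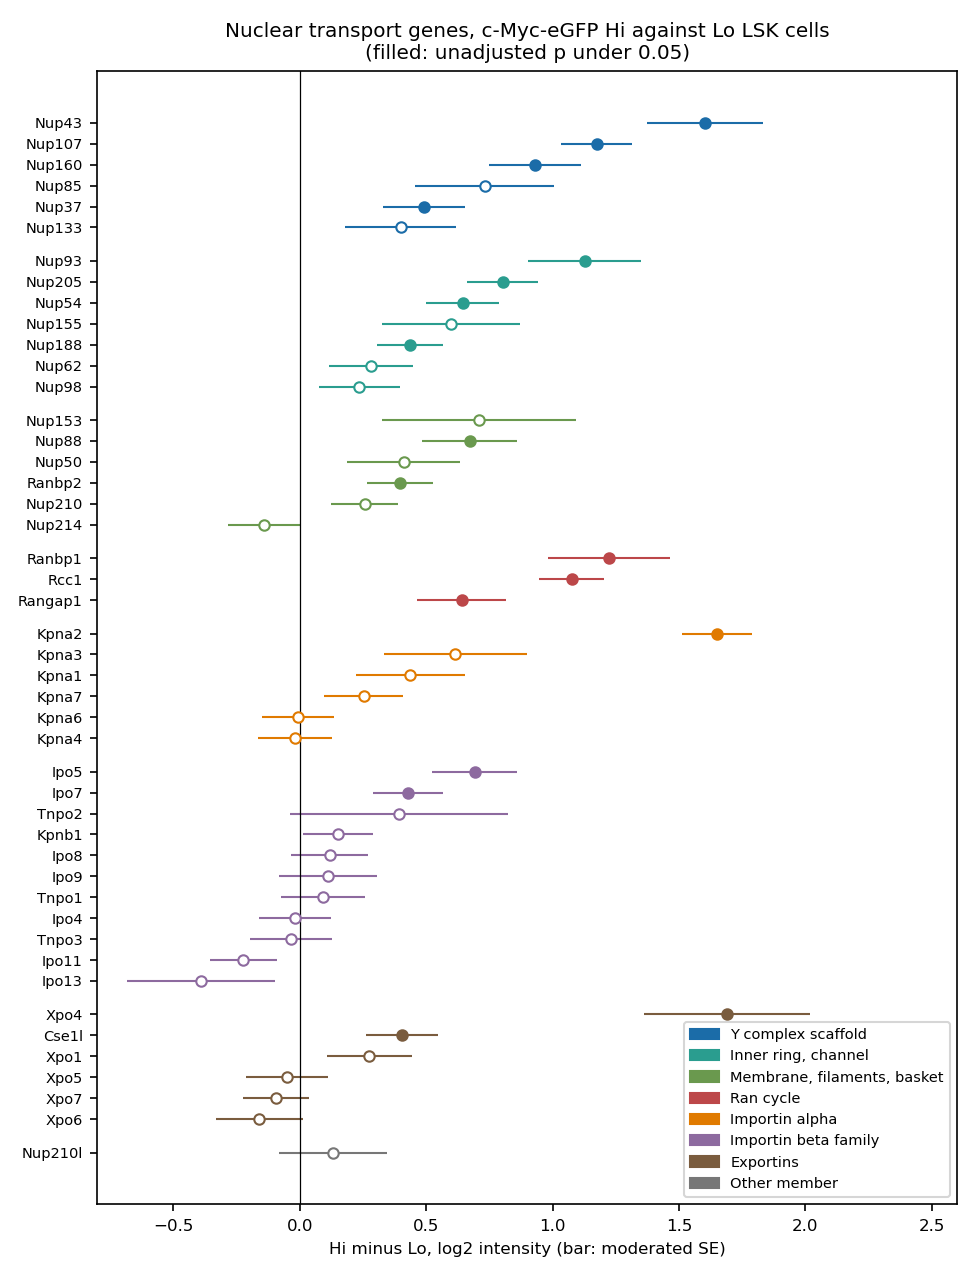
Difference of Hi minus Lo in log2 intensity (horizontal axis) for each of the 46 members, grouped by role, with the moderated standard error as the bar and filled points at an unadjusted p under 0.05. The 6 Y complex genes, the 7 genes of the inner ring and channel and the 3 Ran regulators all lie right of 0, while 4 of 11 importin beta family genes and 3 of 6 exportins lie left of it.

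The role lists differed in how many members stood higher. At an unadjusted p under 0.05 these were 4 of 6 in the Y complex (median difference 0.83), 4 of 7 in the inner ring and channel (0.60), 2 of 6 in the membrane, filaments and basket (0.40) and all 3 Ran regulators (1.08). They were 1 of 6 importin alpha genes (16.7%, median 0.35), 2 of 11 importin beta family receptors (18.2%, 0.11) and 2 of 6 exportins (33.3%, 0.11). At that limit 9.25% of all genes were higher, and 11.6% of those above the dim limit. The difference between lists was not tested, and members of 1 complex are not independent. Genes of proliferation moved with the members. Of 12 listed, 11 were measured and 10 were higher at an unadjusted p under 0.05, with a median of 0.88. The exception was Mki67 at 0.20, with overlapping groups. Tyms reached that limit by 1 of its 4 probe sets, and another differed by -0.03. The 11 proliferation genes had a summed linear intensity of 56381 and 56933 in Hi against 33614 and 32889 in Lo. Their part in the result was not tested. In these sorted bulk samples a larger share of cells that express a gene and more RNA per cell cannot be told apart.

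**Figure D2:**
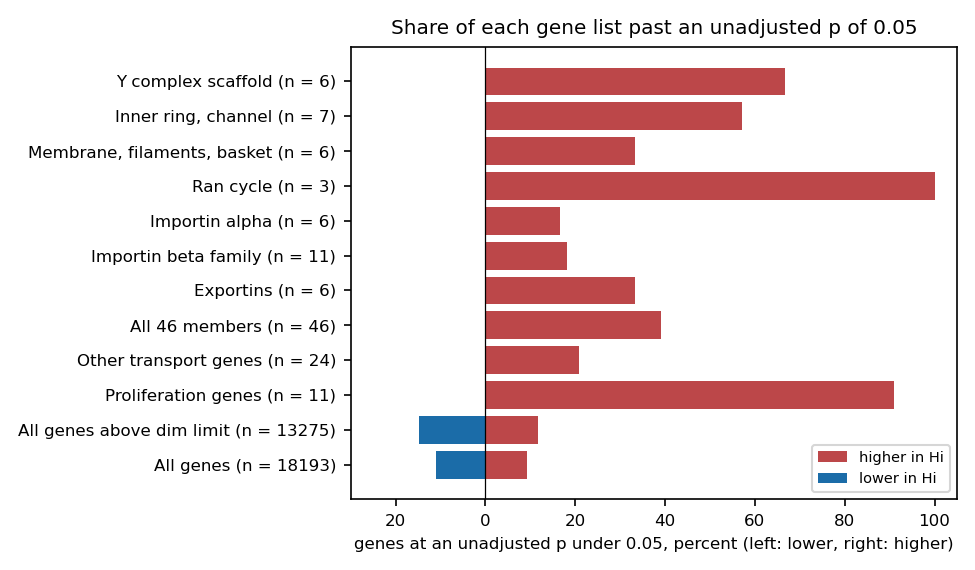
Share of each gene list at an unadjusted p under 0.05, in percent, with genes higher in Hi to the right of 0 and genes lower in Hi to the left. No role list has a gene lower at this limit, while 11.0% of all genes are.

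The Y complex is the outer scaffold of the pore and also sits at kinetochores in mitosis. All 6 measured members had both Hi arrays above both Lo arrays. The Y complex genes Sec13 and Seh1l lie outside the naming rule and are given with the other genes of the pathway. Nup107, which names the complex, read 11.20 and 11.13 in Hi and 9.92 and 10.07 in Lo. The gap between groups was many times that within them, and the difference of 1.17 ± 0.14 (SE) is 2.26-fold, with a limma adjusted p of 0.0949. Nup43, a small beta-propeller subunit, read 10.97 and 10.57 in Hi and 8.98 and 9.34 in Lo. Both arrays of Hi stood over a log2 unit above both of Lo: 1.60 ± 0.23 (SE), 3.04-fold, adjusted p = 0.102 by limma. A further probe set of Nup43 differed by 1.43. Nup160, a long stem subunit, read 11.42 and 11.26 in Hi and 10.57 and 10.25 in Lo, a difference of 0.93 ± 0.18 (SE). Its other probe set was below the dim limit on all arrays and differed by 0.10.

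Nup37, a small subunit beside Nup160, read 10.72 and 10.61 in Hi and 10.30 and 10.04 in Lo, a difference of 0.49 ± 0.16 (SE). For Nup85 and Nup133, both scaffold subunits, the Lo arrays lay far apart and the differences did not reach an unadjusted p of 0.05. Nup85 read 11.78 and 11.96 in Hi and 10.81 and 11.47 in Lo, and its difference of 0.73 ± 0.27 (SE) was 0.40 when Lo replicate 1 was left out and 1.06 when Lo replicate 2 was. Nup133 read 11.87 and 11.88 in Hi and 11.23 and 11.73 in Lo. Its difference of 0.40 ± 0.22 (SE) became 0.15 when Lo replicate 1 was left out and 0.65 when Lo replicate 2 was. All 6 probe sets of Nup133 were higher in Hi, by 0.26 to 0.90.

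The inner ring anchors the channel to the membrane and the outer rings. Nup93, which ties the inner ring to the channel nucleoporins, read 11.38 and 11.58 in Hi and 10.12 and 10.59 in Lo, a difference of 1.13 ± 0.22 (SE), 2.18-fold. Nup205, a large ring-shaped scaffold protein, read 11.17 and 11.12 in Hi and 10.27 and 10.42 in Lo, a difference of 0.80 ± 0.14 (SE), 1.75-fold, adjusted p = 0.12 by limma. The groups did not overlap for either gene. Nup188, the paralogue of Nup205, read 9.77 and 9.82 in Hi and 9.38 and 9.34 in Lo, 0.44 ± 0.13 (SE). With both of its probe sets averaged the difference was 1.03 (adjusted p = 0.0441 by limma), since a dim probe set of Nup188 read 5.17 and 5.41 in Hi and 3.76 and 3.59 in Lo. Nup155 likewise had 0.60 ± 0.27 (SE) by its brightest probe set, or 0.29 without Lo replicate 2, and 1.38 by the mean of its 3, 1 of which differed by 2.59 with both Lo arrays below the dim limit. The calls of Nup188 and Nup155 in the fit on gene means therefore include probe sets for which the Lo level is only a bound.

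The channel nucleoporins carry phenylalanine-glycine repeats that form the permeability barrier. Nup54 read 10.23 and 10.33 in Hi and 9.72 and 9.56 in Lo, a difference of 0.64 ± 0.14 (SE), 1.56-fold. All 5 of its probe sets stood between 0.46 and 0.91 with groups that did not overlap. Nup62, a partner of Nup54 in the channel, read 13.00 and 13.11 in Hi and 12.64 and 12.91 in Lo. Its difference of 0.28 ± 0.17 (SE) has a 95% interval from -0.18 to 0.75 and was 0.14 without Lo replicate 1. Nup98, which also shuttles in the nucleoplasm, had 0.24 ± 0.16 (SE), or 0.10 without Lo replicate 2, with a second probe set at 0.59.

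Promoter windows from 250 bases before to 50 after the annotated start were taken from RefSeq (GRCm38.p6), and 37 of the 46 members had one. They were searched for the hexamer CACGTG, the canonical E-box to which Myc and Max can bind and which reads the same on both strands. Of these members 7 (18.9%) held it, against 11.5% of the 10719 genes above the dim limit and 8.09% of all 27025 genes with a window. The 7 were Nup188, Nup54, Nup93, Ranbp2, Ipo7, Ipo4 and Tnpo2, of which the first 5 were among the 18 members at an unadjusted p under 0.05, so 5 of 15 such members with a window and 2 of the other 22 held it. The median GC content of the windows was 64.2% in the members and 60.3% in genes above the dim limit, and base composition was not matched. Spelled-out forms of the site of E2F factors, such as TTTCCCGC, were searched too. They were found in 3 of 37 members (8.11%), Ipo7, Nup210 and Ranbp1, and in 4.58% of genes above the dim limit. Of the 15 members at an unadjusted p under 0.05, 2 held such a form, and 1 of the other 22 did. The windows of the 3 inner ring and channel genes that carry the hexamer are shown, with the hexamer in capitals. Those of Ranbp2 and Ipo7, which carry it too, are not shown. A match is not a binding site, and no binding was measured in these samples. Nup93 has a second window, without the hexamer. In Nup188 it stands 66 and 24 bases before the start, in Nup54 100 and in Nup93 175 bases before it.
Nup188, chr2:30286166-30286465, plus strand: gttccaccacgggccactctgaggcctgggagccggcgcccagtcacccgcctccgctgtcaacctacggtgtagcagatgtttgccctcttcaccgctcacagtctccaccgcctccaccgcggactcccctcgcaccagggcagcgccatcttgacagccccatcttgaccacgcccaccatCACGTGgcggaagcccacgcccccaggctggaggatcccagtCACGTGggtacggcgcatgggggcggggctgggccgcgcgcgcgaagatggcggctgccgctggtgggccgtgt
Nup54, chr5:92435150-92435449, minus strand: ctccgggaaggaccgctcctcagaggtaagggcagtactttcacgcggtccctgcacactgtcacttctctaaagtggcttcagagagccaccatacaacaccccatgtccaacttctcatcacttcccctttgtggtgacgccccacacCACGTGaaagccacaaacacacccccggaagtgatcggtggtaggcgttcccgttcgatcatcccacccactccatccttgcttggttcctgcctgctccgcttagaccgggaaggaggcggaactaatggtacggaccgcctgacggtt
Nup93, chr8:94214314-94214613, plus strand: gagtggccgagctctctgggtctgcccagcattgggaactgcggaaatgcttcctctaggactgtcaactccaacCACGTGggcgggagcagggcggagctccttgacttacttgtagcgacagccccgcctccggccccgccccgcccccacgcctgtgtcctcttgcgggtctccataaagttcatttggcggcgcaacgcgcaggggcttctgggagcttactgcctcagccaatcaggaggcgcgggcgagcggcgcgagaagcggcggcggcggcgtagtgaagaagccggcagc

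The membrane, filament and basket genes were more mixed. Nup88, which holds Nup214 at the cytoplasmic face, had 0.67 ± 0.19 (SE), 1.59-fold, with both Hi arrays above both Lo arrays. Nup210, a membrane-spanning pore protein, read 12.78 and 12.81 in Hi and 12.50 and 12.58 in Lo, a difference of 0.26 ± 0.13 (SE) with a 95% interval from -0.11 to 0.62. Its paralogue Nup210l stood close to the dim limit on all arrays, at 4.61 to 5.07, and is the 1 member on no role list. The basket genes Nup153 and Nup50 had 0.71 ± 0.38 and 0.41 ± 0.22 (SE). For Nup153 the 2 Lo arrays read 10.80 and 9.79, and its difference was 0.21 without Lo replicate 2. For Nup50 the difference was 0.16 without Lo replicate 1.

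Ranbp2 and Nup214, both of the cytoplasmic filaments, had probe sets of opposite sign. The brightest probe set of Ranbp2 read 10.78 and 10.83 in Hi and 10.43 and 10.39 in Lo, a difference of 0.40 ± 0.13 (SE). A dim probe set of Ranbp2 went the other way, at 4.64 on both Hi arrays, below the dim limit, and 5.14 and 5.99 in Lo. The mean of its 4 probe sets differed by -0.08. Nup214 read 10.48 and 10.57 in Hi and 10.59 and 10.74 in Lo by its brightest probe set, a difference of -0.14 ± 0.14 (SE). Its second probe set read 10.11 and 9.66 in Hi and 9.30 and 9.16 in Lo, higher by 0.66, so no single direction can be given for Nup214. Which part of each transcript these probe sets read was not analysed here.

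All 3 regulators of the Ran cycle had both Hi arrays above both Lo arrays. Rcc1, the exchange factor that loads Ran with GTP, read 11.37 and 11.32 in Hi and 10.28 and 10.26 in Lo. The arrays of each group lay close together and far from the other group, and the difference of 1.08 ± 0.13 (SE) is 2.11-fold, adjusted p = 0.0949 by limma. Ranbp1, which helps strip Ran-GTP from transport receptors, read 12.98 and 12.95 in Hi and 12.03 and 11.46 in Lo. It differed by 1.22 ± 0.24 (SE), 2.33-fold, and by 0.94 without Lo replicate 2 and 1.51 without Lo replicate 1. Rangap1, which activates the GTPase of Ran, had 0.64 ± 0.18 (SE), 1.56-fold. Ran itself, no member by the rule, read 13.80 and 13.82 in Hi and 13.61 and 13.54 in Lo, a difference of 0.23 ± 0.13 (SE).

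Importin alpha proteins link cargo with a classical localization signal to importin beta. Kpna2 had the smallest adjusted p of all members. It read 11.68 and 11.75 in Hi and 10.13 and 10.004 in Lo, a difference of 1.65 ± 0.14 (SE), 3.14-fold, adjusted p = 0.0839 by limma. It has 1 probe set, and its difference ran from 1.59 to 1.71 when each array was left out. The window around the start of Kpna2 is shown because it belongs to this member. It holds no CACGTG and 2 copies of CCAAT, in capitals, the motif that NF-Y can bind: 1 lies 25 bases before the start and 1 begins at base 7 after it. At least 1 CCAAT on either strand was found in 20 of 37 members (54.1%) and in 42.5% of genes above the dim limit, and in 6 of the 15 members at an unadjusted p under 0.05 against 14 of the other 22.
Kpna2, chr11:106999476-106999775, minus strand: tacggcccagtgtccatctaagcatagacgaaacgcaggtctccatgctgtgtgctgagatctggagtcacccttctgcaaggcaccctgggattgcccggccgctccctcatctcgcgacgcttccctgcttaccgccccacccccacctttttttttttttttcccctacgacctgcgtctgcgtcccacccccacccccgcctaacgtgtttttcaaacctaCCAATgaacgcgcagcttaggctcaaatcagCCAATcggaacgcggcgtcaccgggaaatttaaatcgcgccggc

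The paralogues of Kpna2 had smaller differences. Kpna3 and Kpna1 had 0.62 ± 0.28 and 0.44 ± 0.22 (SE), and all 3 and all 5 of their probe sets were higher in Hi, by up to 1.35 for Kpna3. Lo replicate 2 was the lowest array for the brightest probe set of both: Kpna3 differed by 0.27 and Kpna1 by 0.20 without it. Kpna4 had -0.02 ± 0.15 (SE) by its brightest probe set and -0.60 by its second, with overlapping groups in both. Kpna6 read 12.12 and 11.99 in Hi and 12.11 and 12.00 in Lo, and its difference of -0.01 has a 95% interval from -0.40 to 0.39. A dimmer probe set of Kpna6 read 7.25 and 7.74 in Hi and 6.71 and 6.30 in Lo, so the mean of both differed by 0.49. Kpna7, known from oocytes and early embryos, stood between 5.86 and 6.29.

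**Figure D3:**
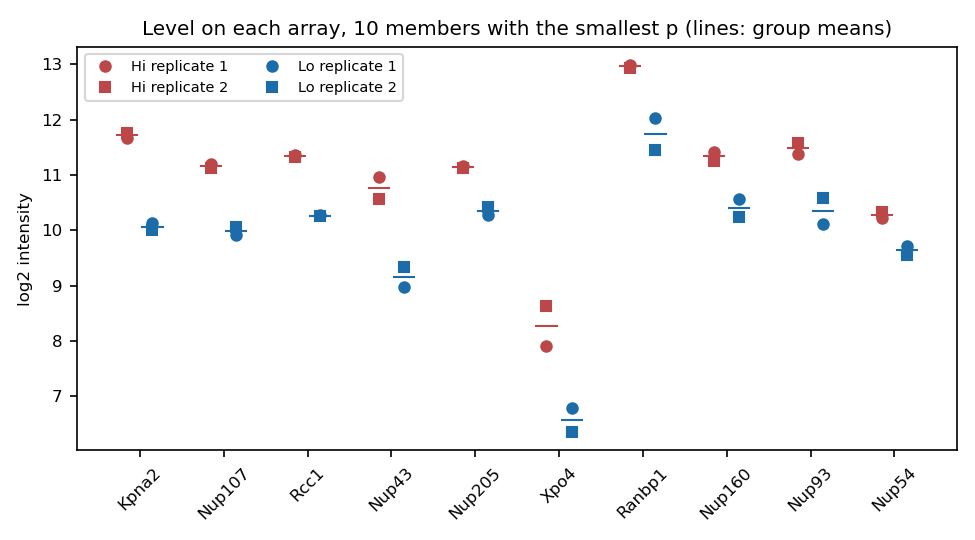
Log2 intensity on each of the 4 arrays (vertical axis) for the 10 members with the smallest p among those higher in Hi, with Hi in red, Lo in blue, replicate 1 as circles, replicate 2 as squares and group means as lines. Both red points lie above both blue points for every gene, closest for Nup54 with 10.23 against 9.72, and the Lo arrays spread most for Ranbp1.

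The import receptors of the importin beta family, which carry cargo through the channel themselves, had a median difference of 0.11. Ipo5 and Ipo7, which import ribosomal proteins and histones among other cargo, were the 2 of 11 at an unadjusted p under 0.05. Ipo5 read 12.11 and 12.20 in Hi and 11.62 and 11.32 in Lo, a difference of 0.69 ± 0.17 (SE), and its 3 probe sets stood between 0.53 and 1.02. Ipo7 had 0.43 ± 0.14 (SE), and groups did not overlap. Kpnb1, importin beta itself, read 12.48 and 12.33 in Hi and 12.26 and 12.24 in Lo, 0.15 ± 0.14 (SE). Its 4 probe sets ran from -0.03 to 1.01, the highest from a dimmer one at 8.65 and 8.76 in Hi and 7.90 and 7.49 in Lo.

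Differences of the other 8 receptors lay between -0.39 and 0.39. Tnpo1 and Tnpo3, which import RNA-binding proteins and SR splicing factors, had 0.09 ± 0.17 and -0.04 ± 0.16 (SE). Ipo4, Ipo8 and Ipo9 had -0.02, 0.12 and 0.11. Tnpo2 was dimmer, and its Hi arrays read 6.80 and 5.85, which overlapped the Lo arrays. Ipo11 was the 1 receptor of this family with Hi below Lo without overlap: it read 12.49 and 12.43 in Hi and 12.71 and 12.66 in Lo, lower by -0.22 ± 0.13 (SE), and a second probe set read 8.29 and 8.01 in Hi and 8.98 and 8.86 in Lo, a difference of -0.77. Both probe sets of Ipo11 had groups that did not overlap, and the second was 1 of the 2 member probe sets lower at an unadjusted p under 0.05; the other was that of Ranbp2. Ipo13, which works in both directions, read 7.98 and 8.28 in Hi and 8.18 and 8.86 in Lo, with overlapping groups, and its difference of -0.39 was -0.05 without Lo replicate 2.

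Among the exportins, Xpo4 had the largest difference of all members by its brightest probe set. Xpo4, which exports factors such as Smad3 and the initiation factor eIF5A, read 7.90 and 8.63 in Hi and 6.79 and 6.36 in Lo. That is 1.69 ± 0.33 (SE), 3.23-fold, with an adjusted p of 0.134 by limma, and 1.33 without Hi replicate 2. Its other 2 probe sets had overlapping groups and lay below the dim limit on 3 arrays and on 1 array, so they give no further measure of Xpo4. Cse1l, which returns importin alpha to the cytoplasm, read 11.61 and 11.76 in Hi and 11.24 and 11.31 in Lo, a difference of 0.41 ± 0.14 (SE), 1.32-fold.

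Xpo1, the general exporter of proteins with leucine-rich signals, had 0.27 ± 0.17 (SE) by its brightest probe set, and 0.12 without Lo replicate 2. Its other 2 probe sets were higher by 0.56 and 0.92, and all 3 had groups that did not overlap. Xpo5, which exports microRNA precursors, had -0.05 ± 0.16 (SE) by its brightest probe set, at 9.33 and 9.61 in Hi and 9.50 and 9.54 in Lo. Its second probe set read 8.74 and 8.97 in Hi and 8.08 and 8.04 in Lo, 0.80 higher, so its direction depends on the probe set. Xpo6, the exporter of actin, read 9.86 and 9.997 in Hi and 9.94 and 10.23 in Lo, a difference of -0.16 ± 0.17 (SE). Xpo7, a broad-range exporter known from red cell maturation, read 12.51 and 12.49 in Hi and 12.56 and 12.62 in Lo, and its difference of -0.09 has a 95% interval from -0.46 to 0.27. Of its 8 probe sets 4 were above and 4 below 0, and 4 of them were at or below 4.02 on all arrays.

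**Figure D4:**
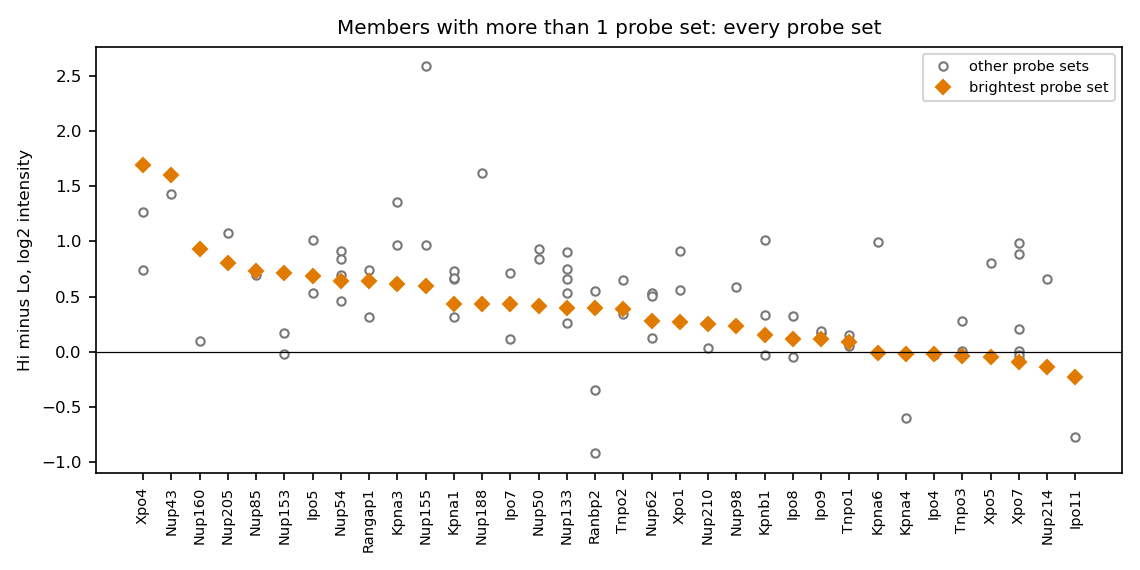
Difference of Hi minus Lo in log2 intensity (vertical axis) for every probe set of the 34 members with more than 1, with the brightest as a diamond and the others as circles. For 22 of the 34 genes the diamond lies below the mean of the circles, and Ranbp2, Ipo11 and Kpna4 have circles well below 0.

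The choice of probe set mattered for many members. Of the 34 with more than 1 probe set, 25 had all differences on 1 side of 0 and 9 did not. The brightest probe set had a smaller difference than the mean of the others in 22 of the 34 and a larger one in 12. In 12 members the brightest did not reach an unadjusted p of 0.05 while another probe set did on the higher side, among them Nup50, Nup85, Nup133, Nup98, Kpna1, Kpna3 and Xpo1. The 2 Lo arrays also differed more than the 2 Hi arrays: they lay over 0.5 apart for 9 members, against 2 in Hi, as they did for 3563 against 1801 of the 13275 genes above the dim limit. Lo replicate 2 was the higher for Nup50, Nup85, Nup133 and Ipo13 and the lower for Kpna3, Nup153, Nup155, Ranbp1 and Tnpo2.

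Other genes of the pathway lie outside the naming rule. Of 26 listed, 24 were measured, with a median difference of 0.27 against 0.03 over all genes. By their brightest probe sets, 5 (20.8%) were higher at an unadjusted p under 0.05 and 0 were lower, against 9.25% and 11.0% of all genes. The membrane nucleoporin gene Ndc1 had 0.74 ± 0.14 (SE). The cofactor gene Nxt1 of the messenger RNA exporter had 0.87 ± 0.22, and Alyref, which couples splicing to that exporter, read 10.93 and 11.02 in Hi and 9.54 and 7.50 in Lo. The pore gene Aaas and the Y complex gene Sec13 were higher by 0.98 and 0.47. Seh1l, also of the Y complex, had 0.08 ± 0.15 (SE) by its brightest probe set, with overlapping groups. All 7 probe sets of Seh1l were higher in Hi, by 0.07 to 1.41, and 3 of them at an unadjusted p under 0.05. With probe sets averaged, only Ndc1 of these 24 was called, at 1.35 with an adjusted p of 0.0317 by limma. In that fit 1.39% of all genes were called higher. The exporter gene Nxf1 stood at -0.02 ± 0.22 (SE) and the pore genes Nupl1 and Nupl2, also known as Nup58 and Nup42, at 0.16 and -0.23 by their brightest probe sets. All 4 probe sets of Nupl1 were higher in Hi, by up to 1.09, and 3 of them at an unadjusted p under 0.05. The second probe set of Nupl2 was higher by 0.78, also under that limit, and the mean of both by 0.27, so its direction depends on the probe set. The 3 with the smallest p among those below 0 were Mcm3ap at -0.27, Snupn at -0.16 and Nupl2. A further probe set of Snupn stood at -1.03 and 1 of Rae1 at -0.78, each at an unadjusted p under 0.05. The brightest probe set of Rae1 stood at 0.30. The means over probe sets were -0.37 for Snupn and -0.10 for Rae1.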

How the data were processed

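RNA of sorted LSK cells was amplified, labelled with biotin and hybridised to 1-colour arrays, per the labels' protocols. The deposited values are intensities on a linear scale, which the authors made with RMA, per the submitters' processing notes; its software and version are not given in the sources used here. RMA gives arrays near-equal distributions, so a shift shared by all genes would not be seen. The log2 of the deposited intensity was taken, 64 control probe sets were left out, and limma 3.58.1 in R 4.3.3 fitted Hi minus Lo over 45037 probe sets with Benjamini-Hochberg adjustment at 0.05. Of these, 34945 carried 1 gene symbol, 932 several and 9160 none in the platform annotation; 34741 matched the RefSeq table of GRCm38.p6 by Entrez identifier and 0 symbols differed. A gene was represented by its probe set with the highest mean. The dim limit of an array was the brightest of 27 bacterial control probe sets. The script was tested on simulated data.

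Every member could be named; values on each array were set for the 10 members with the smallest p above 0, the 5 below 0, the brightest of each role list and those with probe sets of opposite sign of which 1 had an unadjusted p under 0.05. Array values of further members, and Ran, Nxf1, Nupl1 and Seh1l, were chosen after their values were seen. The members and lists were chosen with earlier results of these data known. Alternatives were the mean over probe sets, 1 probe set per gene, the replicate block, arrays shifted to 1 median, quantile normalization, a filter on dim probe sets, a trended robust prior and each array left out. With 2 arrays a group, their number limits the precision.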

Additional observations from a re-analysis of the deposited data

How the results depend on the processing

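With each gene's probe sets averaged, 6 members were higher at an adjusted p of 0.05 by limma, against 1.39% of all genes. At an unadjusted p under 0.05, 26 were higher and 1 was lower, against 11.3% and 11.0% of all genes. In 1 member both Hi arrays lay below both Lo arrays, against 23.4% of all genes. The median difference was 0.48 (0.05 over all genes). A fit over 1 probe set per gene called 3 members higher, against 1.04% of all genes. With arrays shifted to 1 median, 1 member lay below without overlap, against 19.7% of all genes. The members' median was then 0.50, where that of all genes was 0.12. A trended robust prior gave 20 members higher and 1 lower at the unadjusted limit, against 9.98% and 11.7% of all genes. Leaving out each array in turn gave 9 to 17 members higher and 0 to 1 lower at the unadjusted limit, where 4.46% to 9.47% of all genes were higher and 6.18% to 12.5% were lower. It gave 33 to 36 members above and 4 to 7 below without overlap, where 1 array against 2 gave 39.3% to 43.8% and 33.5% to 39.0% of all genes, so these counts are not comparable with those of all 4 arrays. Medians ran from 0.29 to 0.42. The replicate numbers share only a number (correlation of same-numbered deviations 0.0719); the replicate block gave 14 members higher at the unadjusted limit (7.77% of all genes) and 0 at an adjusted p of 0.05. The sign turned with the gene mean for Kpna6 (0.49), Nup214 (0.26), Ranbp2 (-0.078), Tnpo3 (0.085), Xpo5 (0.37) and Xpo7 (0.23). It turned with the median shift for Ipo4 (0.0755), Kpna4 (0.076), Kpna6 (0.089), Tnpo3 (0.0597), Xpo5 (0.044) and Xpo7 (0.0022). Leaving out arrays turned it for Kpna4 (-0.11 to 0.073), Tnpo2 (-0.085 to 0.87), Tnpo3 (-0.17 to 0.10), Xpo5 (-0.19 to 0.089), Ipo9 (-0.034 to 0.26), Kpna6 (-0.0696 to 0.057), Ipo4 (-0.10 to 0.0625), Nup210l (-0.088 to 0.35) and Tnpo1 (-0.049 to 0.23). The dim filter gave 14 members higher at the unadjusted limit, where 9.96% of the genes kept were. Quantile normalization gave 17, where 9.21% of all genes were. The dim filter and quantile normalization turned no member. Signal near the dim limit bounds Nup210l and the dim probe sets of Nup155, Nup188, Ranbp2, Xpo4 and Xpo7.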

Other observations

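A further 3 probe sets carry a member's symbol together with another gene's and were left out of the counts. The one shared by Ipo4 and Tm9sf1 read 11.07 and 11.04 in Hi and 11.00 and 10.48 in Lo. The one shared by Xpo4 and Lats2 read 7.23 and 6.78 in Hi and 5.57 and 7.35 in Lo, with overlapping groups. The one shared by Kpna4 and 9630025H16Rik read 8.461 and 8.825 in Hi and 8.830 and 9.513 in Lo. Its Hi arrays lay below its Lo arrays, by a narrow margin.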
